A study of Mus musculus with 4 samples.

Results

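The nuclei described here form thyAD II cluster 0, a group that the authors labelled thyAD II and that has number 0 in their joint clustering of RNA and chromatin. They were taken as every complete entry of the deposited 6-month table with that label and that number, which gave 89 of 317 labelled nuclei (28.1%). The copy of the table used here stops inside entry 318, so this share and the cluster sizes may be partial. The library is a 10x multiome, in which RNA and open chromatin are read from the same nucleus. It came from 16 thymi of wild-type, naïve 6-month-old female C57/BL6 mice on standard chow, pooled into 1 sample. The tissue was digested and its floating layer was kept, a step that enriches adipocytes, the lipid-storing cells of fat. The comparison groups are the other 228 labelled nuclei: 51 in thyAD II cluster 4, 85 in thyAD I cluster 1, 61 in thyAD I cluster 3 and 31 in Immune cluster 2. All groups share 1 library, so no value has a replicate, no p-value is given, and each interval is a 95% interval for counting error only. The clusters were drawn from these same nuclei, so every contrast between them is a description. RNA of 4-month-old male mice, in 1 library of 6 pooled thymi and 1 of epigonadal fat, is set beside these values at the end.

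A transposase cuts DNA that is not wrapped tightly in nucleosomes, and each sequenced fragment marks a pair of cuts. Active gene starts and enhancers gather fragments, and silent genes gather few. Mural cells, the pericytes and smooth muscle cells that wrap small vessels, are known by Pdgfrb, Rgs5 and Abcc9. Pdgfrb is the receptor through which endothelial PDGF-B recruits pericytes, Rgs5 damps G-protein signalling, and Abcc9 is a subunit of a potassium channel that relaxes vessels. Adipocytes are known by adiponectin, leptin and the lipid-droplet proteins, under control of the nuclear receptor Pparg.

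Cluster 0 held 1321508 fragments, with a lowest nucleus of 4477, a median of 14435 and a highest of 27631. The other labelled nuclei held 3076394 with a median of 12350. Median enrichment at gene starts was 6.74 in cluster 0 and 7.04 in the others, and the median mitochondrial share of UMIs was 3.51% and 5.59%. The authors had classed all 317 nuclei as singlets. Labelled nuclei held 4.35% of the fragments in the file, and the barcodes without a complete entry served as a reference profile. These barcodes are not empty droplets alone: 7821 had at least 1000 fragments, their T-cell genes summed to 1919 CPM against 1094 in Immune cluster 2, and any nuclei listed past the break of the table would be among them. Of the 317 barcodes, 6 also occurred in the 4-month thymic library, 1 of them in cluster 0, and 1 occurred in the epigonadal library. Levels below are fragments over a gene body with 2 kb on either side, given as CPM, the count per 1000000 fragments of the group. A gene is called higher or lower when the groups differ by at least 1.5-fold with at least 20 fragments over both. Levels grow with gene length and are compared between groups, not between genes. Gene lists and their members were chosen with earlier results of these data known, so a count over a list is a description.

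None of the mural markers Pdgfrb, Rgs5 and Abcc9 had its highest level in cluster 0, while the sum over smooth muscle genes, given further on, was highest there. Pdgfrb (ENSMUSG00000024620, chromosome 18, 61045127 to 61085067) had 31.8 CPM in cluster 0 and 24.2, 26.7, 38.3 and 17.8 CPM in clusters 4, 1, 3 and 2, in the order given above. The level of cluster 0 lies inside the range of the other clusters, and barcodes without an entry had 37.6 CPM. The log2 ratio to the other labelled nuclei was 0.28 (−0.30 to 0.83), from 42 and 81 fragments. Rgs5 (ENSMUSG00000026678, chromosome 1, 169655501 to 169695813) had 13 fragments in cluster 0 and 4, 3, 3 and 8 in clusters 4, 1, 3 and 2. That gave 9.84 CPM, below the 14.2 CPM of Immune cluster 2, and a log2 ratio of 0.76 (−0.40 to 1.86). Rgs5 is thus past 1.5-fold on counts whose interval includes equality. Abcc9 (ENSMUSG00000030249, chromosome 6, 142587862 to 142702766) had 35.6 CPM in cluster 0 and 31.1, 34.7, 24.9 and 37.4 CPM in clusters 4, 1, 3 and 2. It too lies inside the range of the others, with a log2 ratio of 0.14 (−0.40 to 0.64).

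Over the mural list of 20 genes, 19 had enough fragments, 2 were higher and 1 was lower in cluster 0. Among all 24451 genes with enough fragments, 8.17% were higher and 7.77% lower. The list median was 0.14 on the log2 scale, beside 0.04 over all genes. Besides Rgs5, the higher gene was Vtn, which encodes the adhesive protein vitronectin, at 18.9 CPM and a log2 ratio of 0.87 (0.05 to 1.66). The lower gene was Gucy1b1, a subunit of the nitric oxide receptor, at 8.32 CPM and −0.63 (−1.79 to 0.31). Kcnj8, the channel pore that pairs with Abcc9, had 0.31 (−0.86 to 1.35), and Notch3, a receptor that mural cells need, had −0.27 (−0.79 to 0.21). The proteoglycan gene Cspg4 had −0.12 (−0.61 to 0.34), the adhesion gene Mcam 0.07 (−0.23 to 0.35) and the Notch target Heyl −0.23 (−0.73 to 0.23). All of these but Vtn have intervals that include equality. Ndufa4l2, Trpc6, Gucy1a1, Foxs1, Art3 and Steap4 had log2 ratios from 0.04 to 0.52, and Higd1b, P2ry14 and Cox4i2 from −0.17 to −0.08. Rgs4 had 2 fragments and was not compared.

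The summed mural level was 678 CPM in cluster 0, and 711, 626, 651 and 566 CPM in clusters 4, 1, 3 and 2. Barcodes without an entry had 487 CPM, a ratio of 1.39. Against those barcodes 6 of 17 mural genes were higher and 3 lower, where 24.3% of 21536 genes were higher and 20.6% lower. Cluster 4 was above cluster 0, with a log2 ratio of cluster 0 over cluster 4 of −0.07 (−0.22 to 0.08). Single nuclei spread widely: in cluster 0 the lowest had 296 CPM over the list, the median 651 and the highest 1360.5. The medians of clusters 4, 1, 3 and 2 were 671, 633, 660.4 and 550.2 CPM.

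**Figure D1:**
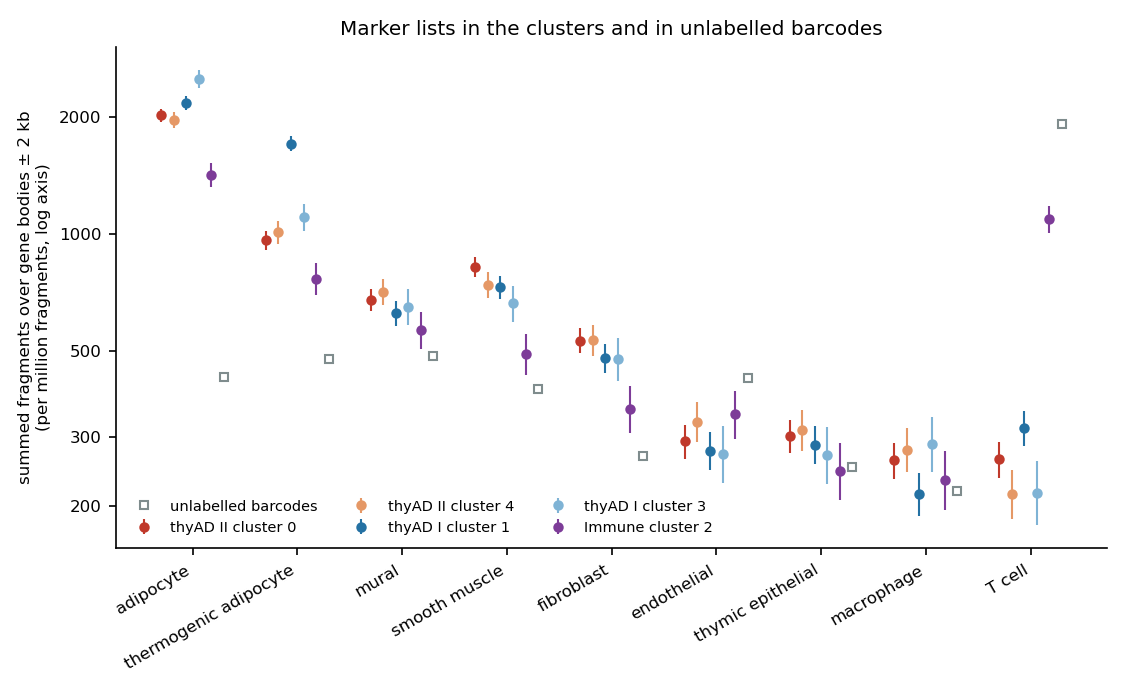
Summed CPM (log axis) over the genes of marker lists, gene bodies with 2 kb on either side. Filled points are the clusters with exact 95% counting intervals, and open squares are barcodes without a complete entry. The mural points of the clusters lie between 566 and 711, while the adipocyte level of cluster 0 (2025) stands far above the square (429).

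**Figure D2:**
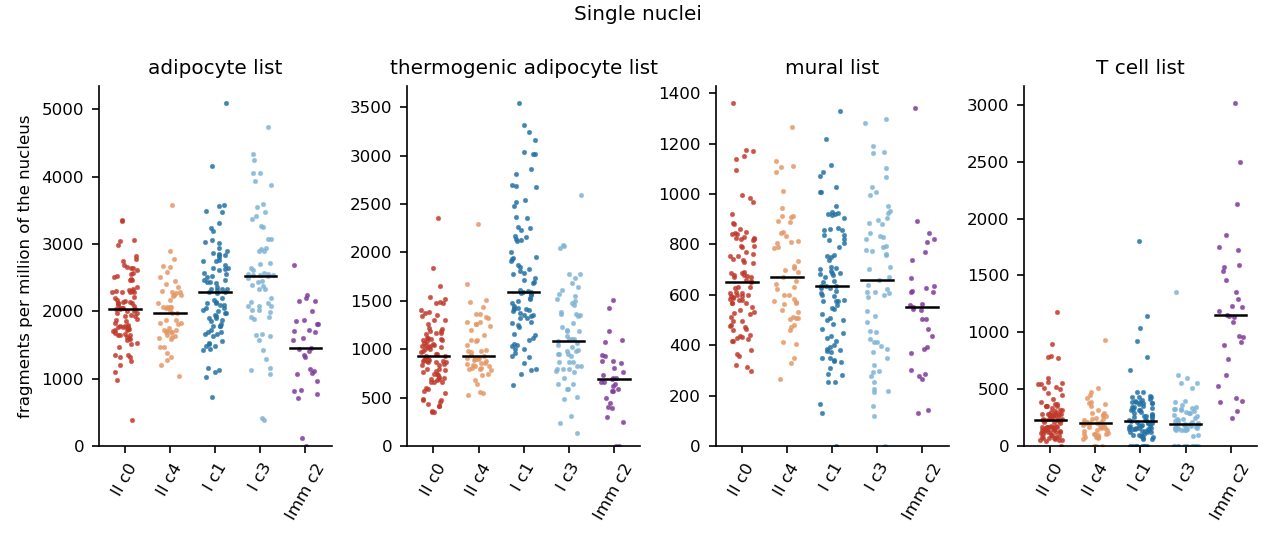
CPM of each nucleus over 4 marker lists. Each point is 1 nucleus of the cluster named below it, and the bar is the median. The mural medians of the clusters lie between 550.2 and 671, and the thermogenic median of thyAD I cluster 1 (1591) stands above that of cluster 0 (931).

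At gene starts, read in windows of equal width, the mean of the mural list was below that of adipocyte genes and below that of all coding genes. Cut sites within 500 bases of a RefSeq gene start averaged 6.89 CPM per start over the 14 mural genes with a start in the table, against 12.9 over all 17491 protein-coding starts. That mean over all coding starts differed between clusters, at 11.5, 12.2, 14.3 and 13.3 CPM in clusters 4, 1, 3 and 2. Clusters 4, 1, 3 and 2 had mural means of 6.38, 5.62, 6.90 and 5.66 CPM, and barcodes without an entry 2.65. Where a gene had several starts, the one with the most cut sites over all labelled nuclei was read. That choice can raise labelled nuclei over barcodes without an entry, and the windows printed below lie before the same starts. Pdgfrb was not among the genes with a start read here. At the start of Rgs5 cluster 0 had 2 cut sites (0.757 CPM), and at Abcc9 it had 5 (1.89 CPM), percentiles 35.2 and 42.0 among all coding starts. Mcam had 70 cut sites (26.5 CPM), and clusters 4, 1, 3 and 2 were higher, at 27.6, 32.9, 37.3 and 31.2 CPM. Adipocyte starts averaged 33.6 CPM in cluster 0 and T-cell starts 1.43.

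**Figure D3:**
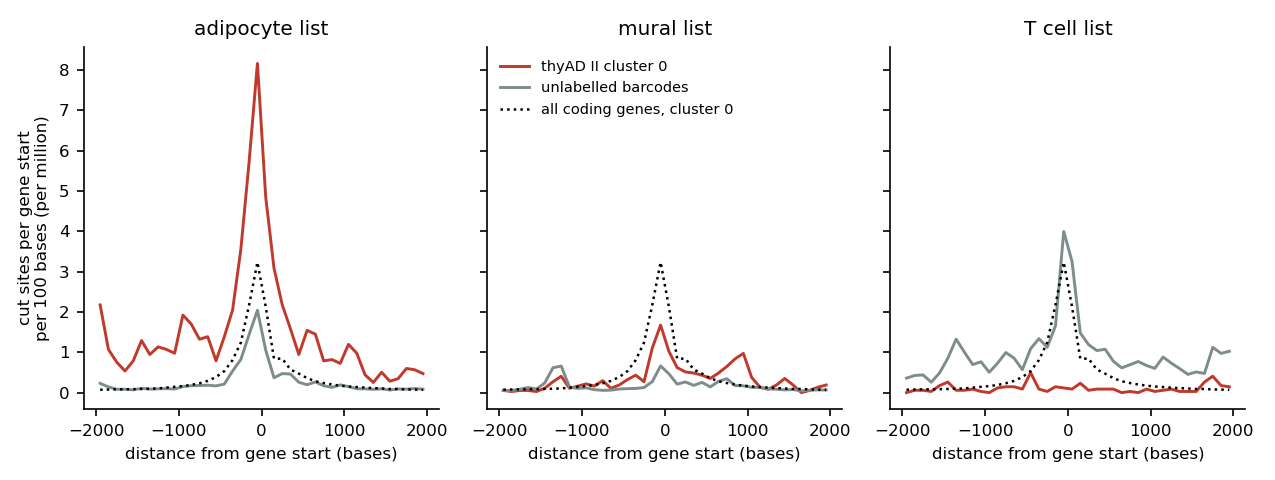
Cut sites per gene start in bins of 100 bases, in CPM, by distance from the start in bases. Red is cluster 0, grey is barcodes without a complete entry, and the dotted line is the mean over all protein-coding starts in cluster 0. The adipocyte peak of cluster 0 stands above the dotted line, the mural peak stays below it, and the T-cell line stays near 0.

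Adipocyte genes were open in cluster 0 and in the other labelled clusters. Of 14 adipocyte genes, 14 were higher than in barcodes without an entry, where 24.3% of 21536 genes were higher. The summed level was 2025 CPM in cluster 0 and 429 CPM in those barcodes, a ratio of 4.73 beside the 1.39 of mural genes, in a reference whose makeup is described above. For lists given further on, the ratio was 3.94 for mural transcription factors, 2.90 for basement membrane, 2.06 for smooth muscle and 1.99 for fibroblast genes. Endothelial genes had 0.69 and T-cell genes 0.14. Clusters 4, 1, 3 and 2 had 1974, 2181, 2513 and 1423 CPM. Against the other labelled nuclei 0 of 14 genes were higher and 0 lower, with a median of 0.06. Over all genes 8.17% were higher and 7.77% lower, with a median of 0.04. Adipoq (ENSMUSG00000022878, chromosome 16, 23146536 to 23157968), which encodes adiponectin, had 137 fragments in cluster 0 (104 CPM) and a log2 ratio of 0.09 (−0.22 to 0.38). Pparg had 237 CPM and 0.07 (−0.13 to 0.26), and 85 of the 89 nuclei had a fragment there. At the ends of the list stood Lpl, the lipase that frees fatty acids from lipoproteins, at 0.33 (0.05 to 0.61), and Retn, which encodes resistin, at 0.26 (−0.29 to 0.77). The lowest were Pnpla2, the first lipase of stored fat, at −0.32 (−0.61 to −0.05) and the factor Cebpa at −0.14 (−0.43 to 0.14).

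The bases before the starts of Adipoq and Lep, which encodes leptin, are printed to show what lies before the starts of an adipocyte pair with fragments in all 5 clusters. They are the 250 bases before the RefSeq start (GRCm38.p6), 5′ to 3′ on the gene's strand, at chr16:23146286-23146535 and chr6:29059971-29060220, both on the plus strand. Capitals mark TTGCNNAA, a core that C/EBP factors favour, AGGTCA, a nuclear receptor half-site, GGGCGG, the GC box, TATAAA, or a CArG box, the site of serum response factor. Both strands were searched and overlaps were kept.
Adipoq: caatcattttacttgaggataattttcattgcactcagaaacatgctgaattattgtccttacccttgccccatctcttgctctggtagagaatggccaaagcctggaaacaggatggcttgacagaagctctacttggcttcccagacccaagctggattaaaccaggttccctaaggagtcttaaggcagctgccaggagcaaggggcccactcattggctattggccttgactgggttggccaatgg
Lep: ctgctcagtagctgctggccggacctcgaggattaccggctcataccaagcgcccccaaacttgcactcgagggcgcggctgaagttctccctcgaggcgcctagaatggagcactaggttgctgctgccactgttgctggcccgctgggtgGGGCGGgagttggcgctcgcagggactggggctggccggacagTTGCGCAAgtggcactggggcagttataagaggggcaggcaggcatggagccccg
The Adipoq window held 0 of these motifs, and the Lep window held 1 TTGCNNAA and 1 GGGCGG. Of 17491 coding-gene windows of this length, 9.02% held TTGCNNAA, 12.2% AGGTCA, 44% GGGCGG, 12.1% TATAAA and 1.34% a CArG box. A match describes letters and does not show binding. The Adipoq window had 21 fragments in cluster 0 and 16, 20, 6 and 7 in clusters 4, 1, 3 and 2, a log2 ratio of 0.02 (−0.82 to 0.76). The Lep window had 17 fragments in cluster 0 and 12, 12, 10 and 6 in the same 4 groups, a log2 ratio of 0.01 (−0.93 to 0.84). Cluster 0 had 15.9 CPM at Adipoq and 12.9 at Lep, where barcodes without an entry had 1.21 and 0.879. Immune cluster 2 had 12.5 and 10.7 CPM, within the range of the thyAD clusters at Adipoq and at the level of cluster 1 (10.7) at Lep.

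Genes of heat-producing fat were less open in cluster 0 than in thyAD I cluster 1. Against all other labelled nuclei, 2 of 14 thermogenic genes were lower and 0 higher, beside 8.17% higher and 7.77% lower over all genes, and the list median was −0.35. Ucp1, the uncoupling protein gene of brown fat, had 11 fragments in cluster 0 (8.32 CPM) and 2, 45, 2 and 4 in clusters 4, 1, 3 and 2. Cluster 1 reached 40.02 CPM and the others stayed at 8.32 or below, and the log2 ratio was −0.999 (−2.14 to −0.10). Otop1, a proton channel gene of brown fat, had 21.2 CPM in cluster 0 and 64.9 in cluster 1, with a log2 ratio of −0.91 (−1.57 to −0.33). The regulator Prdm16 had −0.53 (−0.75 to −0.31) and stayed under the 1.5-fold limit. At the top of the list, Letmd1 had 0.36 (−0.08 to 0.79) and the respiratory chain gene Cox7a1 0.16 (−0.73 to 0.97). Against cluster 1 alone, 11 of 14 thermogenic genes were lower and 0 higher, where 8.24% of 20821 genes were lower and 11.1% higher. The counts against cluster 4 were 2 higher and 0 lower of 13, where 8.98% of 20279 genes were higher and 7.0% lower. Against cluster 3 they were 0 and 2 of 13, where 12.9% of 18993 genes were higher and 8.53% lower. Against Immune cluster 2 they were 2 and 0 of 12, where 20.5% of 19382 genes were higher and 13.5% lower.

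Of 16 smooth muscle genes, 4 were higher and 0 lower, where 8.17% of all genes were higher and 7.77% lower. The list median was 0.29, beside 0.04 over all genes, and 3 of the 4 higher genes have intervals that include equality. Over the list 4 intervals lie above equality: those of Tpm2, Myh11 at 0.58 (0.17 to 0.98), Cald1 at 0.37 (0.04 to 0.69) and Synpo2 at 0.25 (0.03 to 0.46). The summed level was 823 CPM in cluster 0 and 741, 730.2, 664 and 492 CPM in clusters 4, 1, 3 and 2. Its log2 ratio was 0.28 (0.17 to 0.39) to the other nuclei together, and 0.15 (0.01 to 0.30), 0.17 (0.04 to 0.31), 0.31 (0.13 to 0.49) and 0.74 (0.55 to 0.94) to clusters 4, 1, 3 and 2. At gene starts cluster 0 had a mean of 4.89 CPM and clusters 4, 1, 3 and 2 had 4.42, 4.04, 4.62 and 2.82. Actg2, a contractile actin gene, had 18 fragments in cluster 0 (13.6 CPM) and 5, 11, 6 and 1 in clusters 4, 1, 3 and 2. Its log2 ratio was 0.87 (−0.11 to 1.82). Tpm2, a tropomyosin gene, had 37 fragments and a log2 ratio of 0.82 (0.16 to 1.46), with its highest level in cluster 0. The remaining pair was the myosin light chain gene Myl9 at 0.79 (−0.33 to 1.85) and the actin gene Acta2 at 0.61 (−0.17 to 1.35). Lowest of the list were the integrin gene Itga8 at −0.54 (−1.30 to 0.12) and the calponin gene Cnn1 at −0.44 (−2.12 to 0.85). Myocd, a coactivator of smooth muscle genes, had 0.03 (−0.69 to 0.69).

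The fibroblast sum was slightly higher in cluster 0 than in the other nuclei, at 533 and 472 CPM, a log2 ratio of 0.18 (0.04 to 0.31). Clusters 4, 1, 3 and 2 had 534, 479, 477 and 354 CPM, so cluster 4 was level with cluster 0 and Immune cluster 2 was lowest. Of 14 fibroblast genes with enough fragments, out of 16, 0 were higher and 1 was lower, with a median of 0.14. Over all genes 8.17% were higher and 7.77% lower, with a median of 0.04. At gene starts the order differed: the mean of cluster 0 was 3.11 CPM per start over 9 fibroblast genes. Clusters 4, 1, 3 and 2 had means of 2.88, 3.21, 4.36 and 4.06, so clusters 1, 3 and 2 stood above cluster 0. The interval of cluster 0 was 2.44 to 3.91. Those of clusters 4, 1, 3 and 2 overlap it, at 2.10 to 3.85, 2.48 to 4.09, 3.13 to 5.91 and 2.91 to 5.50. Medians per start were 0.757 in cluster 0 and 2.30, 0.889, 0 and 1.78 in clusters 4, 1, 3 and 2, so by this measure cluster 3 was below cluster 0. The lower gene was Dcn, a matrix proteoglycan gene, with 6 fragments in cluster 0 and 30 in the others, at −1.01 (−2.66 to 0.19). Scara5, a ferritin receptor gene, was at the top with 89.3 CPM and 0.49 (0.15 to 0.82), and cluster 4 had 97.9 CPM. Cd34 had 0.36 (−0.76 to 1.37) and Fbn1 −0.09 (−0.61 to 0.39).

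Thymic epithelial cells, which nurse developing T cells, were represented by 16 genes, 11 with enough fragments, of which 2 were higher and 1 was lower, beside 8.17% higher and 7.77% lower over all genes. Epcam and Krt8 were higher on 11 and 16 fragments, at 0.61 (−0.65 to 1.77) and 0.59 (−0.43 to 1.54). Pax9 was lower at −1.06 (−2.70 to 0.13), and Prss16 had −0.56 (−1.86 to 0.49). These 4 intervals include equality. Foxn1, the factor that defines thymic epithelium, had 27.2 CPM in cluster 0 and 40.3, 39.1, 40.2 and 28.5 in clusters 4, 1, 3 and 2, and was lowest in cluster 0. The epithelial sum over gene bodies was 302 CPM in cluster 0 and 284 in the other nuclei, a log2 ratio of 0.09 (−0.09 to 0.26), and 252 in barcodes without an entry, a log2 ratio of 0.26 (0.12 to 0.40). At gene starts the order against those barcodes was the opposite, with means of 3.54 CPM in cluster 0 and 5.99 in the barcodes. The chemokine gene Ccl25 held 85 of the 131 epithelial cut sites of cluster 0.

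Of 15 endothelial genes, 0 were higher and 4 lower, where 7.77% of all genes were lower. The list median was −0.06 and the log2 ratio of the sum −0.05 (−0.23 to 0.12). At the starts of 10 of these genes cluster 0 had the highest mean of the 5, at 2.42 CPM (1.86 to 3.09). Clusters 4, 1, 3 and 2 had 1.56 (1.02 to 2.26), 2.22 (1.65 to 2.93), 1.82 (1.09 to 2.84) and 1.51 (0.88 to 2.42), so the intervals overlap. Medians per start were in another order, at 0.757 in cluster 0 and 0.864, 1.11, 1.44 and 0 in clusters 4, 1, 3 and 2. Tie1 and Tek, the receptor genes of the angiopoietin pathway, had −1.44 (−3.56 to −0.07) and −0.89 (−1.88 to −0.07). The junction gene Cdh5 had −0.75 (−2.42 to 0.48) and the arterial factor Sox17 −0.82 (−2.97 to 0.65). Flt1 and Kdr, both receptors for VEGF, stood at the top with 0.46 (−0.06 to 0.95) and 0.39 (−0.28 to 1.02). Of 6 lymphatic genes, 1 was higher, where 8.17% of all genes were, Pdpn at 0.59 (−0.43 to 1.54). Reln came next at 0.21 (−0.28 to 0.68), and the lowest were Flt4 at −0.43 (−1.402 to 0.40) and Lyve1 at −0.41 (−1.65 to 0.60).

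T-cell genes were lower for 10 of 15, where 7.77% of all genes were lower, with a median of −0.72, led by Cd8b1 at −2.07 (−3.53 to −1.05) and the recombinase gene Rag1 at −2.02 (−4.11 to −0.71). Rag2 was at the top with 0.43 (−0.16 to 1.001), and Dntt, a polymerase gene of receptor rearrangement, had −0.37 (−1.34 to 0.47). The summed level was 263 CPM in cluster 0 and 214, 317, 216 and 1094 CPM in clusters 4, 1, 3 and 2. Barcodes without an entry had 1919 CPM. Immune cluster 2 alone stands high among the clusters, and without it the log2 ratio of the sum was 0.02 in place of −0.65 (−0.82 to −0.48).

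Of 8 macrophage genes with enough fragments, Adgre1 was higher at 0.77 (−0.27 to 1.75) and Csf1r, the receptor that macrophages need, lower at −1.35 (−2.62 to −0.39), beside 8.17% higher and 7.77% lower over all genes. The scavenger receptor gene Cd163 had 0.48 (−0.84 to 1.66) and F13a1 −0.55 (−1.19 to 0.02). Of 6 dendritic genes, Batf3 was higher at 0.69 (−0.47 to 1.77) and the receptor gene Flt3 lower at −1.28 (−2.12 to −0.58). The chemokine receptor gene Xcr1 had 0.56 (0.09 to 1.03) and Zbtb46 −0.10 (−0.41 to 0.19). B-cell genes had 0 higher and 0 lower of 3, with Cd79a at 0.29 (−0.47 to 0.99), Blk at 0.21 (−0.54 to 0.89) and Pax5 at 0.08 (−0.24 to 0.39).

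Over all genes 8.17% were higher and 7.77% lower, which are the shares to set beside each count in this paragraph. Schwann genes had 0 higher and 0 lower of 7. They ran from Scn7a at 0.35 (−0.05 to 0.74) to Cdh19 and the myelin gene Mbp at −0.23 (−1.78 to 1.004) and −0.37 (−0.62 to −0.12). Mesothelial genes had 0 higher and 0 lower of 5, from Wt1 and Krt19 at 0.52 (−0.16 to 1.16) and 0.45 (−1.05 to 1.76) to Upk3b and Lrrn4 at −0.27 (−1.52 to 0.76) and −0.48 (−1.13 to 0.09). Of 5 skeletal muscle genes the myosin gene Myh1 was lower at −0.76 (−2.27 to 0.39), while Acta1 had 0.36 (−0.36 to 1.03), Neb 0.07 (−0.504 to 0.60) and the creatine kinase gene Ckm −0.37 (−1.197 to 0.36). The part that chromatin of other cells plays in these levels was not tested.

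The 25 genes with the highest ratios and at least 50 fragments in cluster 0 included a chaperone gene, a homeobox gene and a transcription cofactor gene among the 6 highest, beside the antisense transcript Hoxd3os1, Smkr-ps and Slc7a15. They were picked by this ratio, so their values describe the choice. Hspb8 (ENSMUSG00000041548, chromosome 5, 116408491 to 116422864) encodes a small heat shock protein that helps to clear damaged proteins, and had 158 fragments in 70 of 89 nuclei. That is 119.6 CPM, and clusters 4, 1, 3 and 2 had 72.6, 48.0, 70.8 and 19.6 CPM. Cluster 0 was highest of the 5, with a log2 ratio of 1.16 (0.83 to 1.48). Hoxd3 (ENSMUSG00000079277, chromosome 2, 74711993 to 74748271), a homeobox factor of positional identity, had 71.1 CPM in cluster 0 and 56.4, 35.6, 19.1 and 10.7 CPM in clusters 4, 1, 3 and 2, a log2 ratio of 1.06 (0.64 to 1.47). Hoxd3os1, an antisense transcript that overlaps Hoxd3, stood first at 1.33 (0.74 to 1.93). Fragments carry no strand, so those in the overlap count for both genes. Vgll3 (ENSMUSG00000091243, chromosome 16, 65815189 to 65866368), a cofactor of the TEAD transcription factors, had 48.4 CPM in cluster 0 and 34.6, 15.1, 34.4 and 14.2 CPM in clusters 4, 1, 3 and 2, a log2 ratio of 1.03 (0.52 to 1.53).

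Grb10, an adaptor that restrains insulin receptor signalling, had the most fragments of the 25. It had 191 in 75 nuclei (145 CPM), and 107, 72.9, 80.4 and 58.8 CPM in clusters 4, 1, 3 and 2, a log2 ratio of 0.83 (0.55 to 1.11). Stab2, a scavenger receptor for hyaluronan, had 83.2 CPM and 0.96 (0.58 to 1.33). Lbp, which binds bacterial lipopolysaccharide, had 70.4 CPM and 0.84 (0.43 to 1.24). Ephb3, a receptor for ephrin-B, had 0.88 (0.41 to 1.34). The log2 ratios of Smkr-ps, Slc7a15 and the elastase gene Cela1 lay between 1.03 and 1.11, and those of Cacng7, Dmrt2, Efs, Tmem231 and Car2 between 0.90 and 0.92. Rhbdl3, Tprg, Pop5, Snora73b, Tlcd5, Polr2l, Nucb1, Mfsd10 and the splicing regulator gene Nova2 lay between 0.83 and 0.88. The largest share of a gene's fragments from 1 nucleus was 14%, at Car2.

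The windows before 5 starts are printed because they belong to leading genes, to the highest thymus-acting gene and to a mural marker. Capitals mark the motifs named above, and the windows were chosen after values were seen. Positions are chr5:116422865-116423114 (minus strand), and chr2:74711743-74711992, chr16:65814939-65815188, chr2:126034408-126034657 and chr1:169655251-169655500 (plus strand), GRCm38.p6. The Fgf7 window also lies within the span of Fam227b, and the Hoxd3 window within that of Hoxd3os1.
Hspb8: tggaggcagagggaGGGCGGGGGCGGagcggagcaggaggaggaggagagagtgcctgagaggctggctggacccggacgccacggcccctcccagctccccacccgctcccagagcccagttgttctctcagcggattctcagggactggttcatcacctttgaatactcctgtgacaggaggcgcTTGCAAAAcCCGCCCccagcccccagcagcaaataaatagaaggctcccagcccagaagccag
Hoxd3: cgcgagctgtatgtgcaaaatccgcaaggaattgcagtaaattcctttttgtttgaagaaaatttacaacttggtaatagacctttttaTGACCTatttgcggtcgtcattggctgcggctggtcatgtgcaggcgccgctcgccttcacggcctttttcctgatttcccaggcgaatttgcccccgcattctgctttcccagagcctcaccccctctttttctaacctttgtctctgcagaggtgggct
Vgll3: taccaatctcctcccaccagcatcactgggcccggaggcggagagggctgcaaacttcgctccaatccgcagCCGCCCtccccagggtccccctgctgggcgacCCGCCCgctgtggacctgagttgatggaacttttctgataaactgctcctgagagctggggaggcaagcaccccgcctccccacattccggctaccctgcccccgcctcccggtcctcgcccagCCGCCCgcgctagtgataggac
Fgf7: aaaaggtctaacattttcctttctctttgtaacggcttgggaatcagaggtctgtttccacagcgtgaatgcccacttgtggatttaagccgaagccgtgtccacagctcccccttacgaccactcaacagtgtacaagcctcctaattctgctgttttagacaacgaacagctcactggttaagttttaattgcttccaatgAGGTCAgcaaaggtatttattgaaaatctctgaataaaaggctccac
Rgs5: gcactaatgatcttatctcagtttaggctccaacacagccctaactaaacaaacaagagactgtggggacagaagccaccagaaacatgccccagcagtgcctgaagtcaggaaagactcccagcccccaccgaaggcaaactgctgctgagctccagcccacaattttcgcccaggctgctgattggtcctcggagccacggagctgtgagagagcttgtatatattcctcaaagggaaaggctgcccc
Hspb8 held 1 TTGCNNAA and 3 GGGCGG, Vgll3 held 3 GGGCGG, Hoxd3 and Fgf7 held 1 AGGTCA each, and Rgs5 held 0 motifs.

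Fragments over these windows were few, and cluster 0 had the most of the 5 clusters at 4 of them. Those 4 genes were picked by ratios over regions that hold these windows, so the counts are part of the choice and describe it. The Hspb8 window had 32 fragments in cluster 0 and 16, 9, 6 and 0 in clusters 4, 1, 3 and 2, a log2 ratio of 1.26 (0.51 to 2.03). The Hoxd3 window had 13 and 3, 1, 1 and 0, a log2 ratio of 2.52 (1.02 to 4.44). The Vgll3 window had 14 and 4, 0, 2 and 0, a log2 ratio of 2.38 (0.97 to 4.11). The Fgf7 window had 6 fragments in cluster 0 and 0 in each of the others, and each count of 0 allows up to 3. The Rgs5 window had 0 fragments in all 5 clusters and 9 in barcodes without an entry. Within 500 bases of the start, cluster 0 had 91 cut sites at Hspb8, 30 at Hoxd3, 51 at Vgll3 and 15 at Fgf7. These counts are for cluster 0 alone and make no comparison with the other clusters.

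**Figure D4:**
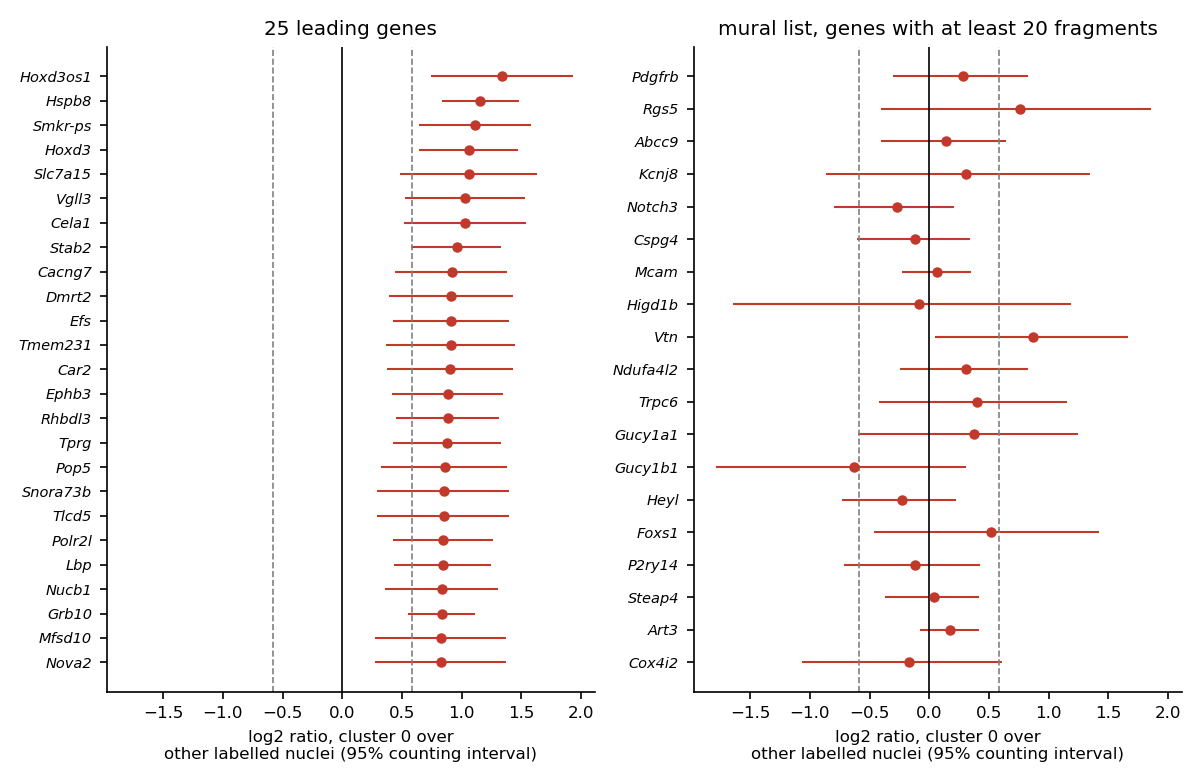
Log2 ratios of cluster 0 over the other labelled nuclei, gene bodies with 2 kb on either side, for the 25 highest genes and for the mural genes with at least 20 fragments over both sides. Points are ratios with exact 95% counting intervals, and dashed lines mark 1.5-fold. The leading genes lie right of the dashed line because they were picked by this ratio, and of 19 mural genes the interval of Vtn alone lies above 0.

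Of the 10 genes with the lowest ratios, Cd8b1, the kinase gene Zap70, the integrin gene Itga4 and the signalling adaptor gene Traf1 were highest in Immune cluster 2. Pla2g4a, a phospholipase gene, was also highest there, at 112 CPM against 12.9 in cluster 0, as was Qrfprl at 24.9 against 4.54. Tnnc2, the troponin C gene of fast muscle, had 4 fragments in cluster 0 and 51 in the others, the lowest ratio at −2.30 (−4.38 to −1.01). Rhbdl2, a rhomboid protease gene, had 6.05 CPM in cluster 0 and 35.7 in cluster 4. Cerkl and Mab21l2 were highest in cluster 1, at 65.8 and 30.2 CPM against 12.1 and 6.05 in cluster 0.

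Among the ligands and receptors of the PDGF pathway, 0 of 7 genes were higher and 1 was lower, beside 8.17% higher and 7.77% lower over all genes. The ligand gene Pdgfd had 24.2 CPM in cluster 0 and 29.9, 53.4, 36.4 and 41.0 in clusters 4, 1, 3 and 2, a log2 ratio of −0.76 (−1.39 to −0.21). It was lowest in cluster 0 and highest in cluster 1. The ligand genes Pdgfa, Pdgfb and Pdgfc had 0.05 (−0.32 to 0.41), −0.17 (−1.16 to 0.69) and 0.12 (−0.25 to 0.47). Pdgfra, the receptor of fibroblasts and fat progenitors, had 0.09 (−0.49 to 0.63), and the receptor-like gene Pdgfrl 0.31 (−0.32 to 0.89).

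In the Notch pathway 1 of 17 genes was higher and 0 lower, beside 8.17% higher and 7.77% lower over all genes. Dll1, a ligand gene, had 31.8 CPM in cluster 0 and 26.5, 14.2, 17.2 and 5.34 CPM in clusters 4, 1, 3 and 2, a log2 ratio of 0.94 (0.31 to 1.56). The target Nrarp had 0.52 (−0.46 to 1.42), and the receptor gene Notch1 was at the bottom with −0.29 (−0.64 to 0.04). Of 14 TGF-beta genes, 0 were higher and 0 lower. They ran from the ligand genes Tgfb1 at 0.30 (−0.15 to 0.72) and Tgfb3 at 0.21 (−0.32 to 0.71) to the signal carriers Smad2 at −0.16 (−0.47 to 0.14) and Smad3 at −0.28 (−0.51 to −0.07).

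In the angiopoietin pathway 3 of 4 genes were lower, where 7.77% of all genes were. Beside Tie1 and Tek, the ligand gene Angpt2 had 24.2 CPM in cluster 0 and 46.1, 40.02, 19.1 and 35.6 in clusters 4, 1, 3 and 2, with −0.61 (−1.24 to −0.05). Cluster 3 was lower still. Angpt1 had −0.15 (−0.46 to 0.14). Tek had 14 fragments in cluster 0 and 30 in cluster 4, or 10.6 and 34.6 CPM. Basement membrane genes, which build the sheet around both vessels and adipocytes, had 0 higher and 0 lower of 14, beside 8.17% and 7.77% over all genes. Col18a1 and Lama5 were at the top with 0.41 (0.12 to 0.70) and 0.32 (−0.12 to 0.74), and Nid2 and Hspg2 at the bottom with −0.17 (−0.53 to 0.16) and −0.21 (−0.48 to 0.05). Among 10 adhesion receptor genes Cdh2, N-cadherin, was lower at −0.70 (−1.198 to −0.25), with 37.1 CPM in cluster 0 and 93.4 in cluster 1. Itga7 and Itga1 were at the top with 0.26 (−0.11 to 0.61) and 0.22 (−0.08 to 0.52).

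Of 15 channel and cyclic GMP genes with enough fragments, out of 16, 0 were higher and 2 lower, where 7.77% of all genes were lower. Pde3a, a phosphodiesterase gene, had 61.3 CPM in cluster 0 and 87.5, 56.0, 93.8 and 194 in clusters 4, 1, 3 and 2, a log2 ratio of −0.65 (−1.03 to −0.30). Its highest level was in Immune cluster 2. The other lower gene was Gucy1b1, and Trpc6 and Gucy1a1 topped the list at 0.40 (−0.42 to 1.16) and 0.37 (−0.59 to 1.25).

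Vasoactive receptor genes, through which hormones tighten or relax vessels, had 1 higher and 2 lower of 10, beside 8.17% higher and 7.77% lower over all genes. Avpr1a, a vasopressin receptor gene, had 17 fragments in cluster 0 and 6, 4, 1 and 4 in clusters 4, 1, 3 and 2, a log2 ratio of 1.39 (0.31 to 2.504). Ednrb, an endothelin receptor gene, had 2 fragments in cluster 0 and 23 in the others, at −2.01 (−5.43 to −0.29). Adra1a, an alpha-1 adrenergic receptor gene, had 76.4 CPM in cluster 0 and 184 in cluster 1, at −0.70 (−1.03 to −0.38). Ptger3, a prostaglandin receptor gene, had 0.46 (0.12 to 0.79).

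Transcription factor genes known from mural and mesenchymal cells had 2 higher and 1 lower of 20 with enough fragments, out of 21, and a median of 0.26. Over all genes 8.17% were higher and 7.77% lower, so these shares are near those of all genes. Gata6, a factor of mesoderm, had 136 fragments in 64 nuclei (103 CPM), and 88.7, 38.2, 82.3 and 58.8 CPM in clusters 4, 1, 3 and 2, a log2 ratio of 0.69 (0.37 to 1.01). Snai2, a factor of epithelial to mesenchymal change, had 28.8 CPM and 0.77 (0.12 to 1.398). Both were highest in cluster 0. Tbx18, which marks pericytes and vascular smooth muscle, was lower at −0.77 (−1.63 to −0.04), with 13.6 CPM in cluster 0 and 32.9 in cluster 1. Foxc2 had −0.31 (−1.04 to 0.35). The summed list was above the reference barcodes in all labelled clusters, at 1886 CPM in cluster 0 and 1812, 1793, 1724 and 1099 CPM in clusters 4, 1, 3 and 2, against 478 in barcodes without an entry.

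Neural crest genes, which mark an embryonic source of thymic mural cells, had 2 higher and 2 lower of 9 with enough fragments, out of 10, beside 8.17% higher and 7.77% lower of all genes. Sox9 had 18.9 CPM in cluster 0 and 9.22, 10.7, 9.57 and 8.91 in clusters 4, 1, 3 and 2, at 0.96 (0.13 to 1.77), and Tfap2b had 0.86 (−0.51 to 2.14). Pax3 was lower at −1.46 (−3.08 to −0.31), along with Ednrb. Genes of sphingosine 1-phosphate, the lipid that draws mature T cells out of the thymus, had 0 higher and 1 lower of 9, where 7.77% of all genes were lower. The lower gene was the kinase gene Sphk1 at −0.74 (−1.83 to 0.15), and the receptor gene S1pr1 had −0.53 (−1.93 to 0.58). Plpp1 and Plpp3, lipid phosphate phosphatase genes, had 0.44 (−0.02 to 0.89) and 0.38 (0.16 to 0.60).

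Genes for factors that act on thymocytes or thymic epithelium had 4 higher of 13 with enough fragments, out of 16, with 2 lower and a median of 0.24. Over all genes 8.17% were higher and 7.77% lower, so both counts of this short list are above the share over all genes. Its members were chosen with earlier results of these data known, so the counts also describe that choice. At gene starts the list mean was 5.53 CPM (4.77 to 6.37) in cluster 0 and 5.23, 4.24, 5.96 and 4.59 in clusters 4, 1, 3 and 2. Cluster 3 was highest there, with an interval of 4.73 to 7.41 that overlaps that of cluster 0. Medians per start were 1.89 in cluster 0 and 1.15, 0.445, 1.91 and 3.56 in clusters 4, 1, 3 and 2. Ccl25, whose cut sites were given with the epithelial genes, is on this list too. Fgf7 (ENSMUSG00000027208, chromosome 2, 126034658 to 126091185), a growth factor for thymic epithelium, had 41 fragments in 28 nuclei of cluster 0 (31.0 CPM). Clusters 4, 1, 3 and 2 had 14, 7, 9 and 6 fragments, or 16.1, 6.23, 17.2 and 10.7 CPM, and the log2 ratio was 1.404 (0.72 to 2.09). Vcam1, an adhesion molecule for lymphocytes, had 20.4 CPM in cluster 0 and 18.4, 8.89, 3.83 and 7.13 in clusters 4, 1, 3 and 2, at 0.98 (0.18 to 1.76). Cxcl12, a chemokine for early thymocytes, had 21.9 CPM and 15.0, 12.5, 9.57 and 7.13, at 0.91 (0.15 to 1.65). Kitl, which encodes stem cell factor, had 56.8 CPM and 42.6, 20.5, 30.6 and 42.8, at 0.81 (0.35 to 1.25). For these 4 genes cluster 0 had the highest level of the 5 clusters. Bmp4 and Tnfsf11, the ligand RANKL, were lower at −1.08 (−2.16 to −0.22) and −0.87 (−1.91 to −0.03), and for both cluster 0 was lowest of the 5. Ccl19 and Ccl21a had 0 fragments in all groups.

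The Hox clusters, whose genes record position along the body, were summed because Hoxd3os1 and Hoxd3 stood at ranks 1 and 4 by ratio, a choice made after seeing the data. The Hoxd cluster (chromosome 2, 74668225 to 74765142) had 151 CPM in cluster 0 and 111, 86.3, 49.8 and 46.3 CPM in clusters 4, 1, 3 and 2. The order went from thyAD II to thyAD I to Immune, with clusters 3 and 2 close to each other, and the log2 ratio to the other labelled nuclei was 0.92 (0.64 to 1.195). Against cluster 4 it was 0.44 (0.09 to 0.81). The sum holds the fragments of Hoxd3 and Hoxd3os1 that prompted it. Without fragments that overlap either gene with 2 kb on either side, cluster 0 had 103 fragments (77.9 CPM) and clusters 4, 1, 3 and 2 had 54.1, 49.8, 26.8 and 35.6 CPM, a log2 ratio of 0.81 (0.42 to 1.19). Immune cluster 2 was then above cluster 3. Hoxc had 0.496 (0.19 to 0.80), with 111 CPM in cluster 0 and 112 in cluster 4. Hoxb had 0.20 (−0.004 to 0.39) and Hoxa 0.08 (−0.11 to 0.25), and both intervals include equality.

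**Figure D5:**
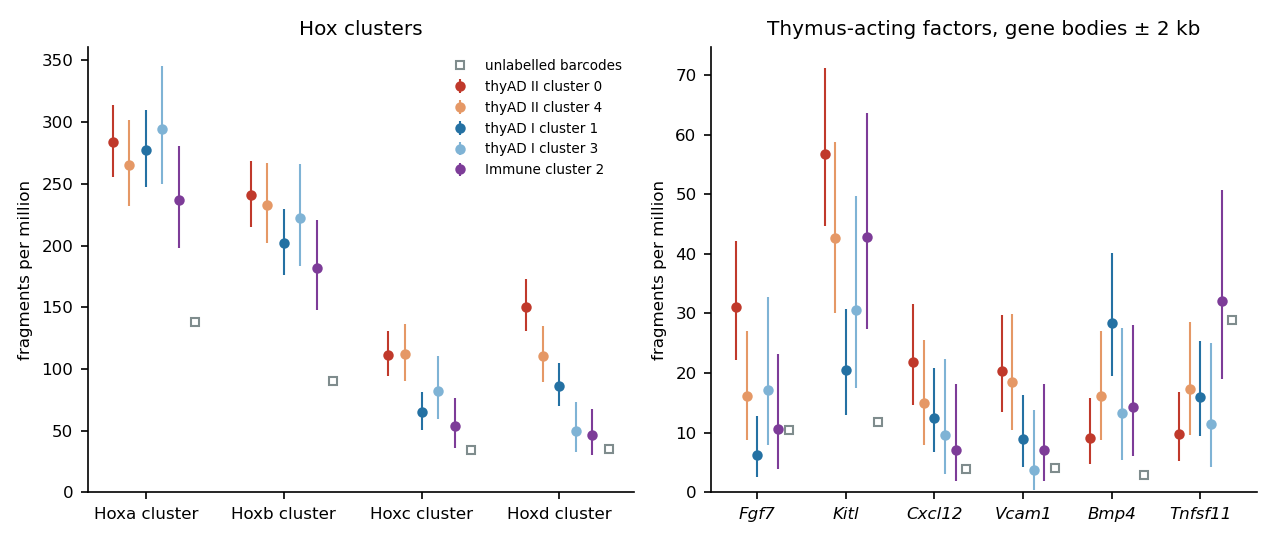
CPM over the 4 Hox clusters (left) and over 6 thymus-acting genes with 2 kb on either side (right). Filled points are the clusters with exact 95% counting intervals, and open squares are barcodes without a complete entry. Hoxd runs from 151 in cluster 0 to 46.3 in Immune cluster 2, and Bmp4 and Tnfsf11 are lowest in cluster 0 of the 5 clusters.

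Within the thyAD II label, cluster 4 was compared on its own. The log2 ratio of cluster 0 over cluster 4 for the angiopoietin sum was −0.60 (−0.90 to −0.29). In single nuclei the median of that list was 131 CPM in cluster 0 and 161 in cluster 4. The highest nucleus of cluster 4 had 930 CPM and that of cluster 0 had 447. The log2 ratio was 0.15 (0.01 to 0.30) for the smooth muscle sum, 0.21 (0.02 to 0.40) for the thymus-acting sum and 0.30 (0.04 to 0.56) for the T-cell sum. For the adipocyte sum it was 0.04 (−0.05 to 0.12), with 0 of 14 genes higher and 0 lower. In this contrast 8.98% of 20279 genes were higher and 7.0% lower. Of the leading genes, Hspb8 had 0.71 (0.29 to 1.17), Vgll3 0.47 (−0.16 to 1.16) and Hoxd3 0.33 (−0.18 to 0.86). Fgf7, which is not a leading gene but the highest of the thymus-acting list, had 0.91 (0.04 to 1.93). All of these genes were picked by a ratio whose other side includes clusters 4 and 1, so their values here describe that choice. The intervals of Vgll3 and Hoxd3 include equality at this depth. Against thyAD I cluster 1, Hspb8 had 1.31 (0.86 to 1.79), Vgll3 1.65 (0.89 to 2.54), Hoxd3 0.99 (0.45 to 1.57) and Fgf7 2.24 (1.15 to 3.72).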

How the data were processed

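The authors' fragment file was made with cellranger-arc 2.0.2 on the mm10 2020-A reference, per the file headers, and lists each unique fragment with its barcode and read count. The 4-month RNA matrices hold UMI counts from cellranger 7.2.0, per the file headers. The submitters' processing notes name Seurat 5.1.0 and Cell Ranger ARC 2.0.2. The deposited nucleus table gives UMI counts, the mitochondrial percent of UMIs, the enrichment ratio at gene starts, and the weight of RNA and chromatin as a fraction in the joint clustering. The filters applied to its nuclei are not stated in these sources. The copy used stops inside entry 318, and the 317 complete entries were analysed.

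Fragments were counted over 49939 gene bodies with 2 kb on either side. Ratios had 0.5 fragments added to each sum and exact binomial intervals. Intervals and limits cover counting error only. No test was made, since each group is part of 1 library of pooled animals. The 27 lists hold 301 genes, all matched. Members and lists were chosen with earlier results of these data known. Named are all mural and PDGF genes, the 2 highest and 2 lowest of each other list (1 of these genes is not reported here), and the 25 highest and 10 lowest genes with at least 50 fragments in cluster 0 or in the others. Pparg, Prdm16, Myocd, Myl9, Acta2, Foxn1, Cdh5, Sox17, Cxcl12, Ccl25, Kitl, Myh11, Cald1, Synpo2 and the printed windows were chosen after values were seen. Alternatives changed the window, minimum, fold, added fragments, weighting, scaling (edgeR 4.0.16 TMM) and nuclei. Python 3.11.15 with numpy 2.4.6, pandas 2.3.3 and scipy 1.17.1, and R 4.3.3, were used, and code was tested on simulated data.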

Additional observations from a re-analysis of the deposited data

How the results depend on the processing

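No paired analysis was possible because each group is part of 1 library. Over all alternatives, 378 list sums kept their value within its counting interval and 26 moved, and 1 sum at least 1.5-fold apart changed sign. Counting sums near equality too, the sign changed in 43 cases. List medians kept in 346 cases and moved in 55, and the counts of higher or lower genes in a list kept within 1.5 times in 631 and moved in 179. Counts over all genes kept within 1.5 times in 22 cases and moved in 8, and values of single genes kept in 2117, moved in 46 and, for 1 gene at least 1.5-fold apart, changed sign. With the nuclei at or above the median enrichment at gene starts, log2 ratios of the sums were 0.20 for mural, 0.34 for fibroblast and −0.0826 for adipocyte genes, and Batf3 turned to −0.0517. With windows at gene ends, 779 of 13740 genes tested were lower (1901 of 24451 in the main setting), and the sums were 0.0295 for fibroblast and −0.25 for thymic epithelial genes. Without Immune cluster 2 the sums were −0.11 for adipocyte and −0.48 for thermogenic genes, and the T-cell sum turned to 0.0169, the cluster with high T-cell genes being left out. Equal weight per nucleus gave −0.0948 for adipocyte genes, and equal weight per other cluster, chosen after seeing the data, gave −0.25 for thermogenic genes. For the counts of genes at least 1.5-fold higher and genes at least 1.5-fold lower, values followed the rule: 536 lower with 5 fragments added to each sum, 8574 higher and 7944 lower with no minimum, 920 and 802 with a minimum of 50, and 399 and 622 at 2-fold. Except where the alternative's own construction sets it, the cause of a move was not tested. Depth limits single genes: with 42 fragments in cluster 0 the interval of Pdgfrb spans −0.30 to 0.83.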

Other observations

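The genome was also cut into 1 kb bins, a step added after seeing the data. Of 37875 bins with at least 20 fragments over both sides, 16.2% were higher and 13% lower in cluster 0. The 3 highest were taken from the 10734 bins with at least 20 fragments in cluster 0, and the 3 lowest from the 11888 bins with at least 40 in the others, so their values describe that choice. The highest, chr13:94154001-94155000 within Lhfpl2, had 23 fragments in cluster 0 and 6, 0, 1 and 1 in clusters 4, 1, 3 and 2, a log2 ratio of 2.69 (1.53 to 4.11). A bin 8468 bases from Tril, a gene of Toll-like receptor signalling, had 21 fragments in cluster 0 and 3, 2, 0 and 3 in clusters 4, 1, 3 and 2. The bin at the start of Prrt4 had 24 fragments in cluster 0 and 7, 3, 1 and 0 in clusters 4, 1, 3 and 2, a log2 ratio of 2.31 (1.26 to 3.52). At the low end, a bin 33519 bases from Scnn1g, a sodium channel subunit gene, had 0 fragments in cluster 0 and 11, 18, 7 and 4 in clusters 4, 1, 3 and 2, and a count of 0 allows up to 3. A bin 19526 bases from the stress gene Gadd45g had 1 fragment in cluster 0 and 15, 21, 8 and 3 in clusters 4, 1, 3 and 2. A bin within Zfp831 had 1 fragment in cluster 0 and 2, 37, 1 and 1 in clusters 4, 1, 3 and 2, so most of its fragments were in cluster 1.

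RNA of the 4-month thymic library, from 6 pooled thymi of male mice, is set beside these values with no comparison, since age, sex and library differ and its labels are not those of the 6-month table. The mural list had 127 CPM in the nuclei labelled Ad IIa (51 UMIs in 231 nuclei), 37.0 in Ad IIb and 184 in Ad IIc. It had 759 in Ad Ia (21 UMIs), 1139 in Ad Ib (28 UMIs) and 282 in the other barcodes. The smooth muscle list ran the other way, with 473 CPM in Ad IIa (190 UMIs), 0 in Ad Ia and 40.7 in Ad Ib (1 UMI). The endothelial list had 10487 CPM in Ad IIa, 72.3 in Ad Ia and 2685 in Ad Ib. The 22 of 25 leading genes that matched had 745 CPM in Ad IIa, 362 in Ad Ia (10 UMIs) and 285 in Ad Ib (7 UMIs). Ad IIb had 518 CPM, Ad IIc 516 and the other barcodes 157. Of the 299 UMIs in Ad IIa, Nova2 gave 146 and Grb10 111, while Hspb8 gave 1, Hoxd3 6 and Vgll3 0. Pdgfrb had 0 UMIs in Ad IIa, Rgs5 20 and Abcc9 0. In the 4-month epigonadal library the Ad II labels also stood above the Ad I labels by this sum. The leading genes had 709 CPM in Ad IIa, 583 in Ad IIb, 643 in Ad IIc, 313 in Ad Ia and 366 in Ad Ib. The other barcodes there had 464 CPM, above both Ad I labels, and Ad Ib stood above Ad Ia. The genes behind the sums differed: of 332 UMIs in epigonadal Ad IIc, Polr2l gave 108 and Hspb8 85.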
